A study of Mus musculus with 34 samples.

Results

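Transcripts of 43 cell cycle genes were counted in cultures and tumors of mouse small cell lung cancer (SCLC), a malignancy of neuroendocrine cells of the lung. The genes form a list chosen for this work and were found by their symbols in 3 tables of read counts that together hold 30750 genes. All 43 were present in every table, and all 43 passed the filter on low counts in every table. They were divided by role into 16 genes of DNA synthesis (S phase), 24 genes of mitosis and 3 transcription factors, E2f1, Mybl2 and Foxm1. The study treated SCLC cells with bomedemstat (BOM), a drug that inhibits the histone demethylase LSD1. In the first experiment, cultures of the lines RP-116, RP-48 and G8545 received the solvent DMSO or BOM for 96 h, with 1 library for each line and treatment. In the second, cultures of the line RP-48OVA-LLO190 were kept for 10 d in DMSO (n = 3) or BOM (n = 2), and further cultures in DMSO (n = 3) or BOM (n = 2) had interferon gamma (IFNg) added for the last 48 h. In the third, flank tumors grown from RP-48OVA-LLO190 in immunocompetent mice had 4 treatments, for which the labels give a time of 16 d. Vehicle was given to 5 tumors, BOM to 4, an antibody that blocks PD-1, an inhibitory receptor of T cells, (anti-PD1) to 5 and the combination of BOM and that antibody, BOM plus anti-PD1, to 4. The sample titles number the tumors and name no mouse, and the tests take the tumors as independent. Every group rests on a single cell line, and the labels do not explain the name RP-48OVA-LLO190. Whether replicate libraries at 10 d are separate cultures is not stated either, and their p-values reflect only how far these libraries vary, which may be technical. Polyadenylated RNA was sequenced at 96 h and in the tumors and total RNA at 10 d, so every test stayed within a table.

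In S phase the MCM helicase is loaded at origins by CDC6 and CDT1 and started with CDC45 and the GINS complex, while PCNA, ribonucleotide reductase and thymidylate synthase serve the new strands. Their genes are classical targets of the E2F factors, which the retinoblastoma protein RB holds in check. The mitotic genes are switched on later, in G2, when a MuvB complex with MYBL2 and FOXM1 acts at promoter elements called CHR (cell cycle genes homology region), often with CCAAT boxes that bind NF-Y. Human SCLC almost always lacks functional RB and divides fast, so both sets are abundant in it.

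Promoters of 2 mitotic and 2 S phase genes are printed because they carry the motifs counted below for the mitotic and S phase genes. Each is a RefSeq window (build GRCm38.p6) of 300 bases, from 250 before to 50 after the annotated start of transcription, written 5′ to 3′ on the strand of the gene. Capitals mark CHR elements (TTTGAA, with the variant element TTCGAA), NF-Y boxes (CCAAT) and E2F cores, searched on both strands. The E2F cores were TTCCCGC and, with other central bases, TTCGCGC or else TTGCCGC and finally TTGGCGC. Ccnb2 encodes cyclin B2, a partner of CDK1, and lies at chr9:70421505-70421804 on the minus strand. Cdc20 encodes an activator of the anaphase-promoting complex and lies at chr4:118437294-118437593 on the minus strand. Mcm5 encodes a helicase subunit and lies at chr8:75109259-75109558 on the plus strand. Cdc6 encodes a helicase loader and lies at chr11:98907901-98908200 on the plus strand.
Ccnb2: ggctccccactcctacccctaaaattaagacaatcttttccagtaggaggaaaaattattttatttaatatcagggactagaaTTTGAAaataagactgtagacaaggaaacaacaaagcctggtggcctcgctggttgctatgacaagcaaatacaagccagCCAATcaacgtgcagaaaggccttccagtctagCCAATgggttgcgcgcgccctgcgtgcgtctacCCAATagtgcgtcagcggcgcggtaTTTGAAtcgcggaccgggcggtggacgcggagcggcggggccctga
Cdc20: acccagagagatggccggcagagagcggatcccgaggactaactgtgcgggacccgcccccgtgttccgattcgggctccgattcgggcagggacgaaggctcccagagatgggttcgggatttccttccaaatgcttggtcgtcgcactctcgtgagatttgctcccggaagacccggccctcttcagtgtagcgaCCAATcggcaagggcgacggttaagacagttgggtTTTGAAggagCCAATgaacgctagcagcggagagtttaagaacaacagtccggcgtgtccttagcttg
Mcm5: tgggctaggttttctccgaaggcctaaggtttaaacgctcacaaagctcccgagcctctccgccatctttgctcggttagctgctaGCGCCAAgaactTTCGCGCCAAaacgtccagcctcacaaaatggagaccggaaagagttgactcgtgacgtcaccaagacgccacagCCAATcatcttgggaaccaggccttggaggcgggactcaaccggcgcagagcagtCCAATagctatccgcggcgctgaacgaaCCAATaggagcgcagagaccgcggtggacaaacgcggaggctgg
Cdc6: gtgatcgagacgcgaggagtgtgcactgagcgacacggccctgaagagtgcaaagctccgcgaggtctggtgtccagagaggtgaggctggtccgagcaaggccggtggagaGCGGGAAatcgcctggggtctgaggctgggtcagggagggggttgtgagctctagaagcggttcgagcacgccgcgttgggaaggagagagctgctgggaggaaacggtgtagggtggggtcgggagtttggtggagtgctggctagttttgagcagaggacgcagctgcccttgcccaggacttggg
Ccnb2 has 3 CCAAT boxes spaced 33 bases apart and TTTGAA at positions -167 and 5 from the start site. Cdc20 has 2 CCAAT boxes 45 bases apart and TTTGAA at -18. Mcm5 has 3 CCAAT boxes and 3 E2F cores, of which TTCGCGC at -152 and GCGCCAA at -149 overlap, and it has no CHR element in this window. Cdc6 has 1 E2F core, GCGGGAA at -138, and neither of the other motifs in this window.

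The table of promoters matched 35 of the 43 genes with 36 windows (2 for Mcm7), and had no entry for Aurkb, Ccna2, Ccne2, Foxm1, Gins2, Kif20a, Mcm4 and Tpx2. A CHR element stood in 16 of 20 mitotic windows (80%) and 3 of 14 S phase windows (21.4%), against 6316 of all 32851 windows (19.2%). The mitotic genes without one were Birc5, Ccnb1, Cenpe and Nusap1, and the S phase genes with one were Cdc45, Mcm2 and Mcm7. E2F cores stood in 3 mitotic windows (15%, in Ccnb1, Cdk1 and Mki67) and 9 S phase windows (64.3%), against 9.57% of all windows. CCAAT boxes were found in 17 mitotic (85%), 10 S phase (71.4%) and 37.4% of all windows. CHR and CCAAT occurred together in 15 mitotic windows (75%), 3 S phase windows (21.4%) and 7.52% of all windows. The windows of E2f1 and Mybl2 held none of these motifs. The E2f1 window (minus strand) ends at chr2:154569676, inside the gene, whose 5′ end in the GENCODE annotation is 154569892. That of Cdc6 starts at 98907901, after the GENCODE start at 98907801. The windows of Cdca8, Kif2c and Mcm7 also lie inside the gene. Bases before the GENCODE start of these genes were not searched. A match is a description of the letters and not a site of binding.

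The libraries held 8712025 to 9968681 counts at 96 h, 5896627 to 9044398 at 10 d and 5638353 to 82205546 in the tumors, where vehicle tumor 1 was the deepest. The 43 genes together took 0.852 to 1.03% of the counts at 96 h, 0.653 to 0.845% at 10 d and 0.754 to 0.890% in the tumors. All 10 SCLC neuroendocrine markers looked for were detected in every library. Markers of macrophages, fibroblasts, T cells and endothelium summed to 231 to 1484, 294 to 2372, 8.32 to 43.9 and 163 to 306 CPM (counts scaled to a common library total) in the tumors, those of skeletal muscle to 2.67 to 1217 CPM and those of fat to 20.2 to 528 CPM. In the 10 d cultures the first 4 sums were 5.15 to 12.4, 16.5 to 68.6, 4.51 to 10.5 and 22.7 to 61.0 CPM. The ranges of the T cell markers thus overlapped, although the tumors gave polyadenylated and the 10 d cultures total RNA. Of 8 T cell markers found, 6 to 8 were detected in each tumor and 4 to 6 in each 10 d library. Cd3d and Cd3g were at 0 in every 10 d library. Which cells gave these counts was not tested. Of the 43 genes, 13 share exon bases with another gene, 11 of them with a gene on the other strand. The library kit does not mark the strand, so the counts of Mcm7, Cdc45, Gins2, Ccne2, Ccna2, Plk1, Cdc20, Cdca8, Kif20a, Nusap1 and Ube2c are uncertain to that extent.

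Per gene length as deposited, Pcna, the sliding clamp of the replication fork, was the most abundant of the 43 at 10 d (median 154 CPM per kb) and in the tumors (135 CPM per kb). This length was 2400 bases for Pcna, 4097 for Gins2 and 11012 for Rrm1. It may differ from that of the main transcript, and the order of the genes depends on it. At 96 h Top2a, the topoisomerase that untangles sister chromatids, had a median of 112 CPM per kb and Pcna 109 over the 6 libraries, but the lines differed in order. Top2a was highest in both RP-116 libraries (139 in DMSO and 145 CPM per kb in BOM), Mcm6 and Pcna led in RP-48 (137 and 132 CPM per kb in DMSO, 130.3 and 134 in BOM), and Cdc20 (137 CPM per kb in DMSO) and Rrm2 (103 in BOM) in G8545. The lowest were Gins2 (5.18 CPM per kb), Cdc6 (6.42) and Mybl2 (8.44) at 10 d, and Mybl2 (5.003) and Cdc6 (7.11) in the tumors. The ratio of the highest to the lowest library was 1.26 for Mcm6 to 2.02 for Ube2c at 10 d, 1.22 for Mcm4 to 1.82 for Cdca8 in the tumors, and 1.21 for Nusap1 to 3.15 for Aurka at 96 h, where lines differ.

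The 10 d cultures compared BOM, IFNg and both together. A gene was called changed where the quasi-likelihood F-test of edgeR gave an adjusted p (Benjamini-Hochberg, over all genes tested in the table) under 0.05. In cells given BOM and IFNg the mitotic genes stood lower than in cells given either alone. Of the 24 mitotic genes, 16 fell in BOM with IFNg against DMSO with IFNg, with 4 of 16 S phase genes and Foxm1, where 10.1% of all genes fell, 13.0% rose and 23.1% were called in all. None of the 43 rose, and 0 were higher at an unadjusted p under 0.05 or called higher by DESeq2 or limma voom. Of all 15230 genes 2707 were higher at that unadjusted p. The changes that passed were modest, from -0.25 to -0.53 on the log2 scale. In bulk RNA fewer dividing cells and less RNA per cell cannot be told apart.

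**Figure D1:**
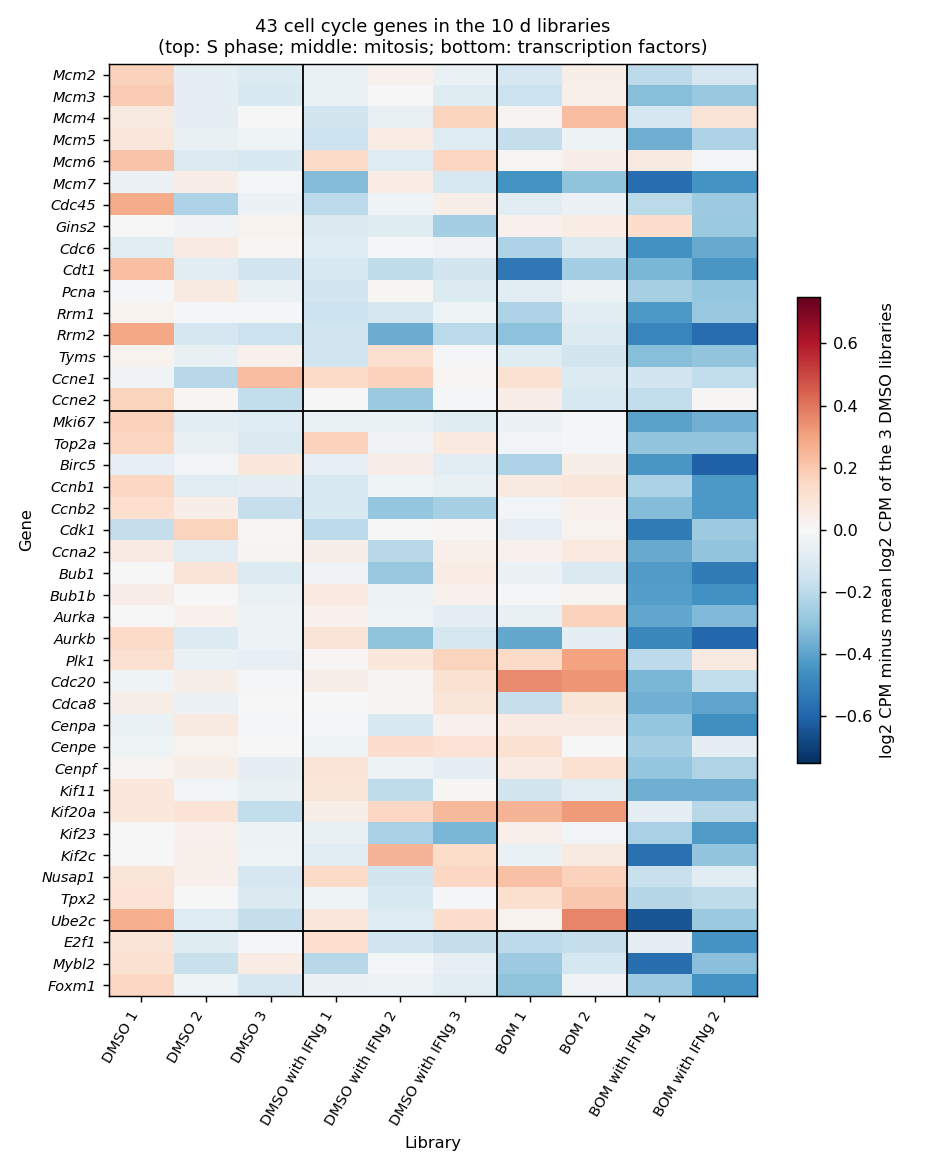
Log2 CPM of the 43 genes (rows, by role) in the 10 libraries of the 10 d cultures (columns, by group), each minus the mean of the 3 DMSO libraries of that gene. The 2 libraries of BOM with IFNg are below the other 8 for 20 of 24 mitotic genes and 8 of 16 S phase genes.

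Cdc20 starts the exit from mitosis. Its level was 92.4, 97.4 and 94.0 CPM in DMSO, 121 and 119 in BOM, 97.4, 95.9 and 102 in DMSO with IFNg and 74.4 and 83.1 in BOM with IFNg. Both BOM libraries were above all 6 DMSO libraries, and both BOM with IFNg libraries were below all 8 others. For 29 of the 43 genes these 2 libraries lay below the other 8 (20 mitotic genes, 8 S phase genes and Mybl2) and for 0 above them, against 7.50% and 6.47% of all genes. The log2 fold change of Cdc20 was 0.34 (SE 0.09, adjusted p = 0.00827) for BOM alone, 0.06 (SE 0.08, adjusted p = 0.943) for IFNg alone and -0.61 (SE 0.10, adjusted p = 0.000777) for IFNg on top of BOM. Ube2c, the ubiquitin-conjugating enzyme that works with CDC20, measured 105, 81.0 and 76.4 CPM in DMSO, 88.0 and 111 in BOM, 91.2, 80.7 and 94.7 in DMSO with IFNg and 55.2 and 71.1 in BOM with IFNg. The last 2 values were again the lowest of the 10. With IFNg on top of BOM, Ube2c fell, with a value of -0.65 (SE 0.16, adjusted p = 0.0348) on the log2 scale.

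The spindle checkpoint kinase Bub1b stood at 153, 147 and 143 CPM in DMSO, 146 and 149.6 in BOM, 155, 143 and 150.4 in DMSO with IFNg and 111 and 108 in BOM with IFNg. The first 8 libraries spanned 143 to 155 CPM, and the last 2 lay well under them. Bub1b fell both with IFNg in BOM, where its log2 fold change was -0.44 (SE 0.09, adjusted p = 0.0115), and with BOM in IFNg, where it was -0.46 (SE 0.08, adjusted p = 0.000614). Aurka, the kinase that matures the spindle poles, measured 79.9, 81.5 and 77.6 CPM, 76.6 and 89.7 CPM, 81.4, 78.0 and 75.6 CPM and 60.7 and 63.3 CPM in the same order of groups, and changed by -0.42 (SE 0.10, adjusted p = 0.0417) with IFNg in BOM. Cenpa, the histone of the centromere, measured 151, 163 and 154 CPM, 163 and 163 CPM, 156, 144 and 159.9 CPM and 128 and 113 CPM, and changed by -0.44 (SE 0.10, adjusted p = 0.0196). For both genes the 2 libraries of BOM with IFNg were the lowest of the 10.

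**Figure D2:**
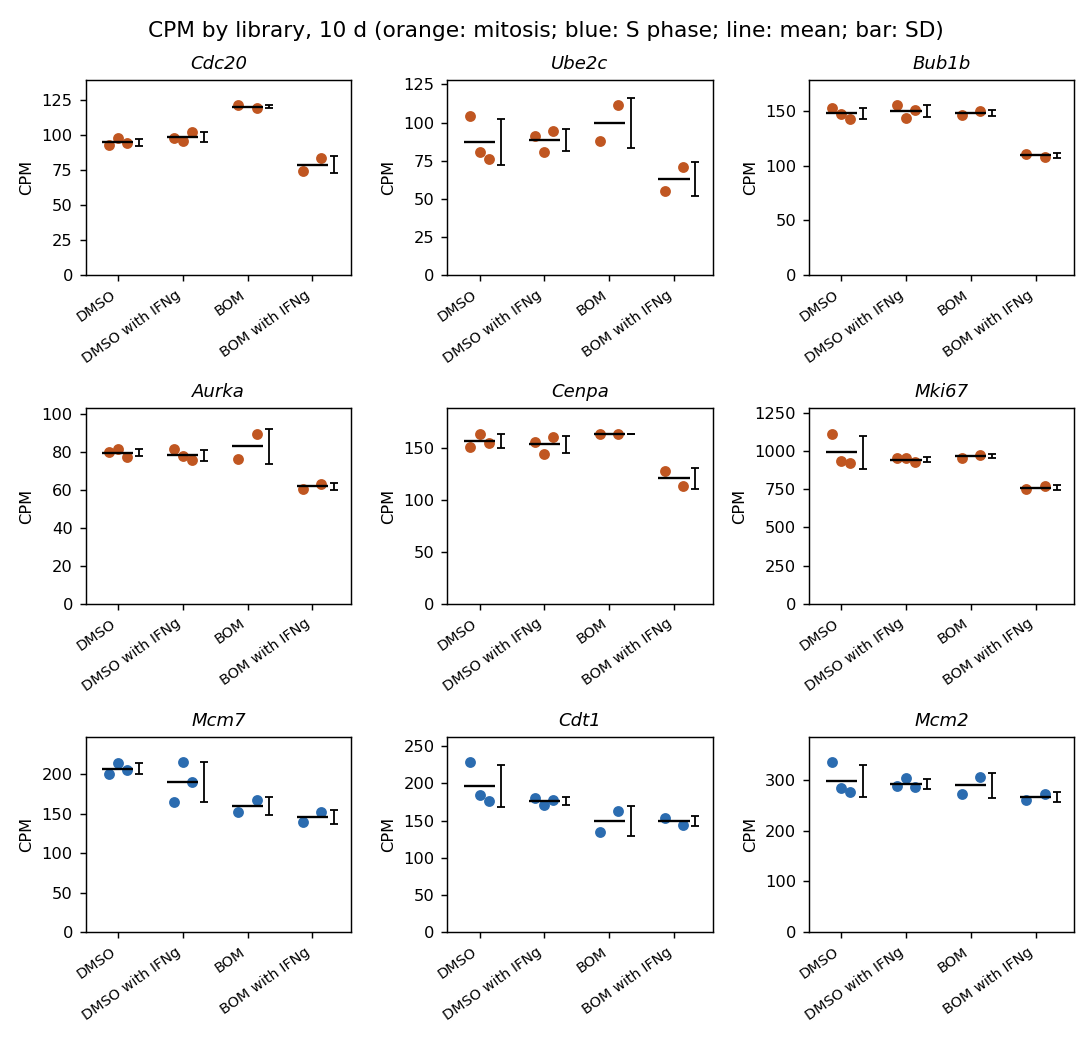
CPM of 9 genes in the 10 d cultures by group (points are libraries, the line is the mean and the bar the SD of a group). Cdc20, Ube2c, Bub1b, Aurka, Cenpa and Mki67 are lowest in BOM with IFNg, whereas Mcm7 and Cdt1 are also low in BOM alone.

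With IFNg in BOM, 5 of the 43 genes fell (Cdc20, Ube2c, Bub1b, Aurka and Cenpa) and 0 rose, against a background of 0.328% of all genes called lower, 1.73% higher and 2.06% in all. All 5 are mitotic. None was higher at an unadjusted p under 0.05 in edgeR, or called higher by DESeq2 or limma voom. All 24 mitotic genes had a negative log2 fold change and an unadjusted p under 0.05, with a median of -0.38, whereas 4 of 16 S phase genes did, with a median of -0.18. Of all 15230 genes 724 were lower and 827 higher at that unadjusted p. The median of all genes was -0.01. Both BOM with IFNg libraries lay below both BOM libraries for 24 of 24 mitotic and 10 of 16 S phase genes, where 20.6% of all genes did so. With the replicate number as a block, 11 members were lower, and the number fell to 1 without BOM library 2 and rose to 10 without DMSO library 1. It was 3 without DMSO library 2, DMSO with IFNg library 3 or BOM with IFNg library 1, and 2 without BOM with IFNg library 2. Cdc20 kept its call in each of these fits.

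With BOM in IFNg, 21 of 43 genes fell, as given above. Among the mitotic genes, Birc5, the survivin subunit of the chromosomal passenger complex, had 57.1, 61.8 and 56.6 CPM in DMSO with IFNg and 44.0 and 39.1 CPM in BOM with IFNg, a change of -0.50 (SE 0.11, adjusted p = 0.00399). Cdca8, which encodes borealin of the same complex, went from 69.4, 70.2 and 73.7 CPM to 53.8 and 52.5 CPM, a change of -0.42 (SE 0.10, adjusted p = 0.00585). The kinase of that complex, Aurkb, changed by -0.44 (SE 0.13, adjusted p = 0.0196). Kif2c, a kinesin that takes microtubules apart at centromeres, went from 68.6, 87.0 and 80.3 CPM to 49.3 and 59.3 CPM, the largest fall in this comparison at -0.53 (SE 0.11, adjusted p = 0.00248). The groups did not overlap for Birc5, Cdca8 or Kif2c, nor for 18 of the other mitotic genes. Over all genes 23.6% lay below without overlap.

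The proliferation marker Mki67 measured 951, 951 and 924 CPM in DMSO with IFNg and 747 and 769 CPM in BOM with IFNg, a change of -0.31 (SE 0.09, adjusted p = 0.0167). Top2a went from 659, 574 and 614 CPM to 476 and 477 CPM, a change of -0.37 (SE 0.09, adjusted p = 0.00747). Both fell without overlap of the libraries. Cdk1, the kinase that drives mitosis, changed by -0.33 (adjusted p = 0.0411), its partner Ccna2 by -0.30 (adjusted p = 0.0305), the checkpoint kinase Bub1 by -0.40 (adjusted p = 0.0108), the spindle motor Kif11 by -0.34 (adjusted p = 0.0123) and the kinetochore gene Cenpf by -0.25 (adjusted p = 0.0343). The 8 mitotic genes that did not pass the test were Ccnb1, Ccnb2, Cenpe, Kif20a, Kif23, Nusap1, Plk1 and Tpx2. Their log2 fold changes ran from -0.29 for Kif20a and -0.26 for cyclin B1 to -0.13 for Kif23. Foxm1, a transcription factor of the mitotic genes, had 121, 122 and 119 CPM in DMSO with IFNg and 104 and 91.7 CPM in BOM with IFNg, a change of -0.31 (SE 0.11, adjusted p = 0.0464). Mybl2 (-0.34, adjusted p = 0.0735) and E2f1 (-0.19, adjusted p = 0.261) did not pass.

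Among the S phase genes in this comparison, the helicase subunit Mcm7 (-0.39, SE 0.10, adjusted p = 0.0115), the loader Cdc6 (-0.37, SE 0.12, adjusted p = 0.0353), the large subunit of ribonucleotide reductase Rrm1 (-0.25, SE 0.09, adjusted p = 0.0428) and thymidylate synthase Tyms (-0.30, SE 0.10, adjusted p = 0.032) fell. Cdc6 had 33.3, 35.5 and 35.1 CPM in DMSO with IFNg and 26.0 and 27.4 CPM in BOM with IFNg. Of the other helicase subunits, Mcm3 had -0.26, Mcm5 -0.23, Mcm2 -0.14, Mcm6 -0.04 and Mcm4 -0.01, and none of these passed. The median was -0.24 for S phase and -0.33 for mitotic genes, and -0.01 for all genes. The count of 21 was 6 without library 1 or without library 2 of BOM with IFNg, and 12 when library 3 of DMSO with IFNg was left out, and Bub1b alone kept its call whichever library was left out. With the replicate block, Rrm1 (adjusted p = 0.0655) and Ccna2 (adjusted p = 0.0514) were no longer called. Scaled by library size alone, 12 members were lower. The non-coding transcript Gm26917 took 11.7 to 15.8% of counts in the DMSO libraries with or without IFNg and 8.36 to 9.85% in the BOM libraries, and without it and Gm42418 the number lower was 20. Of 10 fibroblast markers 9 or 10 were detected in each library, and they summed to 16.5 to 24.5 CPM without BOM and 41.2 to 68.6 CPM with it, and 7 endothelial markers, of which 4 to 7 were detected, to 22.7 to 31.4 and 38.8 to 61.0 CPM. The endothelial gene Tie1 was at 0 in every library but BOM with IFNg library 2. Their part in the result was not tested.

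BOM alone changed 3 of the 43 genes at 10 d, where 20.3% of all genes were called, 12.1% higher and 8.25% lower. Cdc20 rose, as given above. Mcm7 had 201, 214 and 205 CPM in DMSO and 152 and 168 CPM in BOM, so it fell, at -0.37 (SE 0.10, adjusted p = 0.0156) on the log2 scale. Cdt1, the origin licensing factor, had 229, 184 and 177 CPM in DMSO and 135 and 163 CPM in BOM, a change of -0.40 (SE 0.11, adjusted p = 0.0162). Neither gene's groups overlapped. Both stayed near the BOM level with IFNg added, at 139 and 152 CPM for Mcm7 and 154 and 144 CPM for Cdt1. Without BOM library 1 none of the 3 calls remained (adjusted p = 0.0564 for Cdc20, 0.201 for Mcm7 and 0.277 for Cdt1). Mcm7 was also lost without DMSO library 2 (0.0712) and Cdt1 without DMSO library 1 (0.0821). Scaled by library size alone, 2 members were higher and 1 was lower. Of the other genes looked at in every comparison, Mki67 (-0.04), Top2a (-0.02), Ccnb1 (0.07), Plk1 (0.22), Mcm2 (-0.04), Mcm5 (-0.11), Pcna (-0.06), Rrm2 (-0.22), Ccne1 (0.00), Ccne2 (-0.04), E2f1 (-0.19), Mybl2 (-0.21) and Foxm1 (-0.16) did not pass.

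Both BOM libraries lay below all 3 DMSO libraries for 7 of 43 genes and above for 7, against 23.5% and 25.0% of all genes. IFNg alone gave 0 called members in edgeR, and 3 had an unadjusted p under 0.05, all lower (DESeq2 and limma voom also called 0). At that unadjusted p 573 of all 15230 genes were lower. The background there was 2.27% of all genes, 1.95% higher and 0.315% lower. The median was -0.07 for S phase and -0.03 for mitotic genes.

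The difference itself between the IFNg effect in BOM and in DMSO was tested as an interaction. No gene of the table passed in edgeR (0% called, 725 of 15230 at an unadjusted p under 0.05, 424 of them lower). All 24 mitotic genes had a negative interaction with a median of -0.35, and 19 of them had an unadjusted p under 0.05. Of the S phase genes 13 of 16 were negative with a median of -0.10, and 0 had an unadjusted p under 0.05. The median of all genes was 0.00. The lowest adjusted p was that of Cdc20, with -0.66 (SE 0.12, adjusted p = 0.131). DESeq2 called 1 member, Cdc20 (adjusted p = 0.0160), and leaving all genes in the edgeR fit called 2, among them Cdc20 (adjusted p = 0.00857). Adjusted p for Cdc20 ranged from 0.00857 to 0.723 over the alternatives. Kif20a, a kinesin of the last step of division, had an interaction of -0.57 (SE 0.15, adjusted p = 0.533) and Ube2c of -0.67 (SE 0.20, adjusted p = 0.703).

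**Figure D3:**
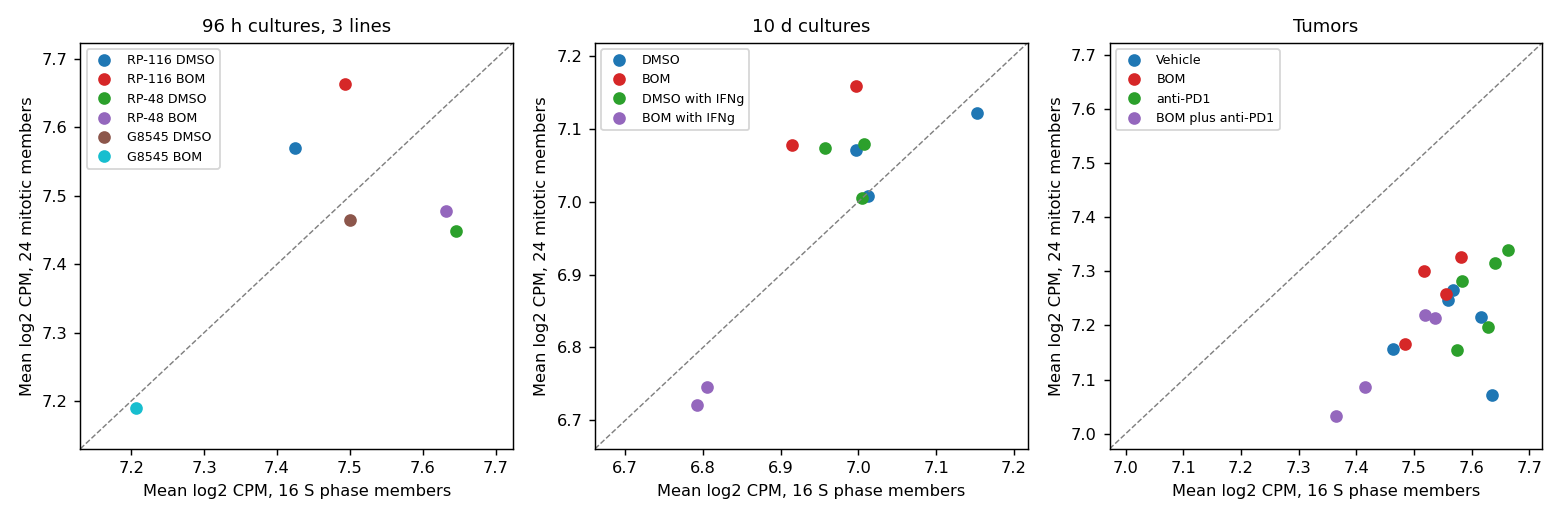
Mean log2 CPM of the 16 S phase genes (x) and the 24 mitotic genes (y) per library, in panels for the 96 h cultures, the 10 d cultures and the tumors (dashed line, equal means). In the 10 d panel BOM libraries lie 0.160 to 0.164 above the line and BOM with IFNg libraries 0.059 to 0.071 below it.

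Set against each other within a library, the mean log2 CPM of the mitotic genes minus that of the S phase genes was -0.030, 0.074 and -0.006 in DMSO and 0.164 and 0.160 in BOM. It was 0.115, 0.001 and 0.073 in DMSO with IFNg and -0.071 and -0.059 in BOM with IFNg. The 2 BOM libraries were the highest of the 10 and the 2 BOM with IFNg libraries the lowest. The means of both gene groups were lowest in BOM with IFNg, at 6.792 and 6.805 for S phase and 6.721 and 6.746 for mitosis. In DMSO they were 6.997 to 7.153 and 7.008 to 7.122.

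Around these genes, the lists of related cell cycle genes moved as follows at 10 d. BOM alone lowered Cdk6, the G1 kinase, from 36.3, 45.5 and 38.6 CPM in DMSO to 5.92 and 6.62 CPM in BOM, a change of -2.67 (SE 0.17, adjusted p = 6.59e-09). The E2F gene E2f2 changed by -0.84 (SE 0.13, adjusted p = 0.000131). The CDK inhibitor Cdkn2c rose by 0.65 (SE 0.09, adjusted p = 5.85e-05), from 71.5, 72.7 and 75.2 CPM to 107 and 121 CPM. These 3 genes had groups that did not overlap. In this comparison 3 of 7 CDK inhibitors rose, and 4 of 30 genes of origin licensing and the replisome, 3 of 30 of the kinetochore, spindle and condensin, 3 of 16 of the pocket proteins, E2F and DREAM, 1 of 12 of G2/M entry and 1 of 5 tested G1 cyclins and CDKs fell, where 12.1% of all genes rose and 8.25% fell. Rb1 (0.29, adjusted p = 0.0774), Ccnd1 (0.85, adjusted p = 0.217), Cdkn1a (-0.37, adjusted p = 0.291) and Cdkn2a (0.20, adjusted p = 0.26) did not pass.

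With BOM in IFNg, 12 of 30 replication genes, 13 of 30 kinetochore and spindle genes, 5 of 12 G2/M genes, 3 of 5 G1 genes and 4 of 16 pocket protein, E2F and DREAM genes fell, while 3 of 7 CDK inhibitors and 2 of 16 pocket protein, E2F and DREAM genes rose, where 10.1% of all genes fell and 13.0% rose. Espl1, the separase that cuts cohesin, had 125, 121 and 117 CPM in DMSO with IFNg and 71.3 and 71.6 CPM in BOM with IFNg, a change of -0.76 (SE 0.10, adjusted p = 1.59e-05). The phosphatase Cdc25b changed by -0.58 (SE 0.09, adjusted p = 0.000134) and Rb1 by 0.38 (SE 0.11, adjusted p = 0.0219). IFNg in BOM lowered 3 of the 30 kinetochore and spindle genes, Kif22 (-0.48, SE 0.10, adjusted p = 0.0114), Dlgap5 (-0.51, SE 0.11, adjusted p = 0.022) and Ckap2 (-0.40, SE 0.10, adjusted p = 0.0362), and no gene of the other 5 lists, where 0.328% of all genes fell and 1.73% rose. IFNg in DMSO changed 0 genes of the 6 lists in edgeR, where 5 had an unadjusted p under 0.05, and 2.27% of all genes. At that unadjusted p 1397 of all 15230 genes were counted.

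The 96 h cultures give the levels of the 43 genes in 3 lines and their shift with BOM. RP-116 had the highest mitotic relative to S phase levels, with a difference of mean log2 CPM of 0.145 in DMSO and 0.171 in BOM. G8545 stood between, at -0.035 and -0.017, and RP-48 was lowest, at -0.197 and -0.155. Each line has 1 library per treatment, so a line comparison sets the BOM and DMSO libraries of one line against those of another, with 2 residual degrees of freedom. Marker sums also differed by line, for endothelium 218 and 146 CPM (DMSO and BOM) in RP-116, 85.6 and 40.0 CPM in RP-48 and 11.1 and 18.8 CPM in G8545, and for fibroblasts 9.997 and 10.1, 6.45 and 18.1, and 165 and 85.8 CPM. Of 7 endothelial markers 5 to 6 were detected in each library, and of 10 fibroblast markers 6 to 8. Cdh5 was at 0 in both RP-116 libraries, Tie1 in every RP-48 and G8545 library and Col1a2 in every library. Which cells gave these sums, and their part in the line comparisons, was not tested.

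RP-116 had 5 members higher than RP-48 and 3 lower, against backgrounds of 12.4% of all genes higher and 17.1% lower (29.5% called). The 5 higher were 4 mitotic genes (16.7% of the mitotic genes) and Mybl2, and the 3 lower were 18.8% of the S phase genes. Neither share stood far from that of all genes, and 18.6% of the 43 were called. Aurka was 192 CPM in DMSO and 234 CPM in BOM in RP-116, 120.3 and 122 CPM in RP-48, and 105 and 74.3 CPM in G8545, and RP-116 exceeded RP-48 by 0.82 (SE 0.20, adjusted p = 0.016) on the log2 scale. Both RP-116 libraries were above all 4 others. Mki67 differed by 0.75 (SE 0.17, adjusted p = 0.0137), Top2a by 0.56 (SE 0.16, adjusted p = 0.0336), the kinesin Kif23 by 0.63 (SE 0.14, adjusted p = 0.0101) and Mybl2 by 0.99 (SE 0.23, adjusted p = 0.0151). The 3 lower were all of S phase, Mcm5 (-0.73, SE 0.15, adjusted p = 0.00712), Mcm6 (-0.45, SE 0.14, adjusted p = 0.0424) and Cdt1 (-0.66, SE 0.18, adjusted p = 0.0274). Mcm5 measured 276 and 266 CPM in RP-116, 451 and 449.6 CPM in RP-48 and 368 and 299.9 CPM in G8545. RP-116 was the lowest line and RP-48 the highest, without overlap. How many of all genes separate these lines in the same way was not counted. The median difference was -0.13 for S phase genes, 0.17 for mitotic genes and 0.02 for all genes. None of the 8 calls held with each library left out in turn, and without either RP-48 library 0 members were higher. Without the RP-116 DMSO or the RP-48 BOM library 0 were lower. Scaled by library size alone, 4 were higher and 5 lower.

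G8545 had 5 members (11.6%) lower than RP-48 and 0 higher in edgeR, against 11.0% and 9.99% of all genes (21.0% called). At an unadjusted p under 0.05, 11 were lower and 1 was higher, and limma voom called 1 higher. Of all 13333 genes 2292 were lower and 2241 higher at that unadjusted p. Pcna was 209 and 163 CPM in G8545 and 317 and 322 CPM in RP-48, a difference of -0.78 (SE 0.18, adjusted p = 0.0197). Ccnb1, the cyclin that takes CDK1 into mitosis, was 77.1 and 64.1 CPM in G8545 and 131 and 103 CPM in RP-48, a difference of -0.73 (SE 0.18, adjusted p = 0.0251). The 2 lines did not overlap in either gene, and the share of all genes that did not overlap was not counted. Mcm6 (-0.55, SE 0.14, adjusted p = 0.0266), Ccne2 (-0.57, SE 0.15, adjusted p = 0.0331) and Cenpa (-0.59, SE 0.16, adjusted p = 0.0343) were lower too. The median was -0.34 for S phase and -0.15 for mitotic genes, and 0.01 for all genes. Without either RP-48 library 0 members were lower, without the G8545 DMSO library 17 were, and without the G8545 BOM library 4 were higher. Scaled by library size alone, 2 were lower and 1 was higher.

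RP-116 had 12 members higher than G8545 and 3 lower, against 16.3% and 19.7% of all genes (36.0% called). Aurka differed by 1.26 (SE 0.20, adjusted p = 0.002) and the motor Kif11 by 0.76 (SE 0.15, adjusted p = 0.00507), and these 2 calls held whichever library was left out and under each alternative. Kif11 was 412 and 431 CPM in RP-116 and 269 and 228 CPM in G8545. Ccne2 (0.78, SE 0.15, adjusted p = 0.00587), Bub1 (0.68, SE 0.16, adjusted p = 0.0142), Mybl2 (0.85, SE 0.23, adjusted p = 0.0236), Tyms (0.57, SE 0.15, adjusted p = 0.0209), Kif23 (0.51, SE 0.14, adjusted p = 0.0209) and Mcm2 (0.55, SE 0.15, adjusted p = 0.0213) were among the others higher, with Bub1b, Cenpe, Kif20a and Ube2c at 0.50 to 0.68. Cdc20 (-0.60, SE 0.18, adjusted p = 0.036), Kif2c (-0.62, SE 0.15, adjusted p = 0.0153) and Cdca8 (-0.56, SE 0.18, adjusted p = 0.0458) were lower. The 3 lower are mitotic genes, as are 8 of the 12 higher. Cdc20 was 135 and 149.7 CPM in RP-116 and 255 and 179 CPM in G8545. Scaled by library size alone the median of all genes moved from 0.00 to -0.14, with 5 members higher and 4 lower, and the median of the S phase genes moved from 0.12 to -0.02. The number higher was 3 without the RP-116 BOM library and 19 without the G8545 DMSO library. The number lower was 0 without the RP-116 DMSO library and 6 without the G8545 BOM library.

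**Figure D4:**
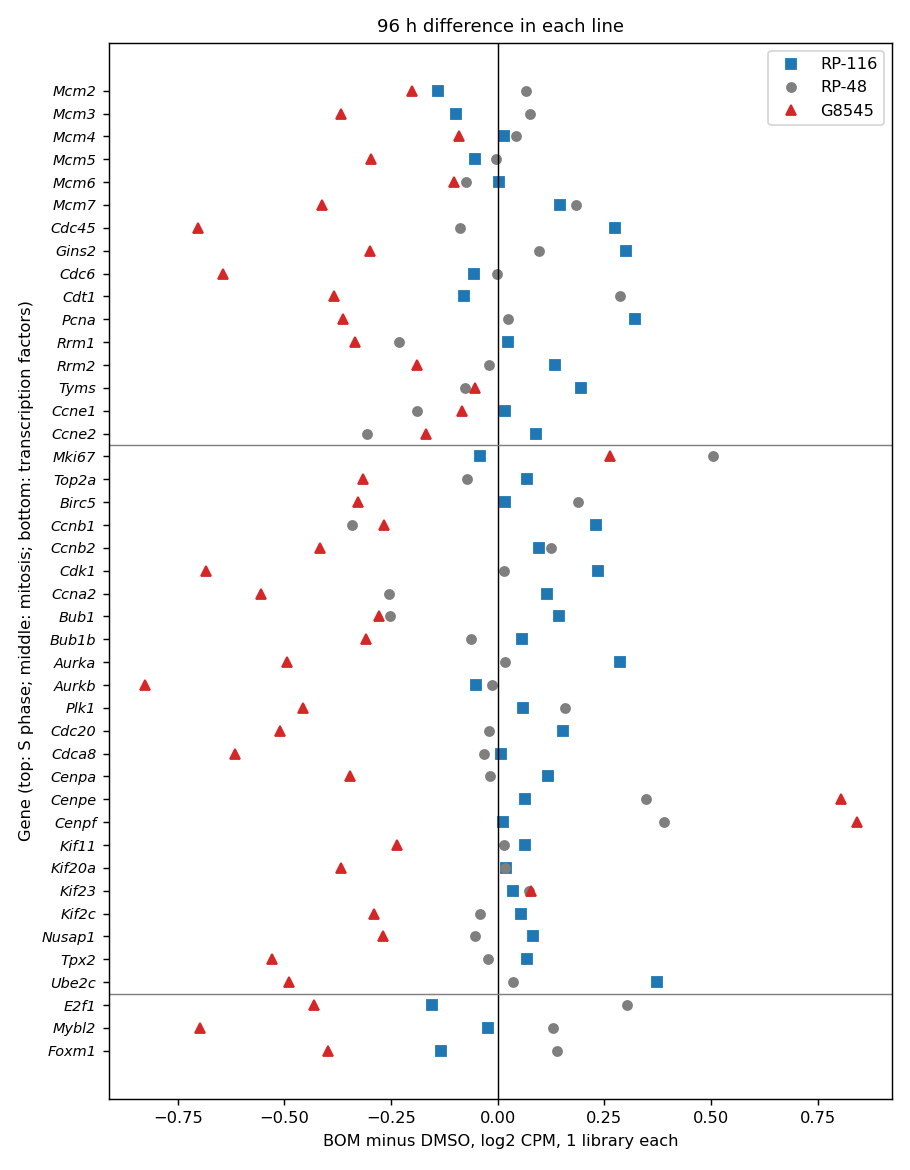
Log2 CPM in BOM minus log2 CPM in DMSO at 96 h for each of the 43 genes in each of 3 lines (1 library per line and treatment, so no error is shown). In G8545 39 of 43 genes are below 0, in RP-116 10 and in RP-48 21. The share of all genes below 0 in each line was not counted.

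BOM for 96 h called 0 of 43 members in edgeR over the 3 lines, and 0% of all 13333 genes tested. At an unadjusted p under 0.05, 812 genes of the table were counted, and of the members the kinetochore motor Cenpe (0.41, SE 0.16, adjusted p = 0.768) and its partner Cenpf (0.42, SE 0.16, adjusted p = 0.781), both higher. DESeq2 and limma voom called 59 and 14 genes of the table and 0 members. The lines did not move alike, a difference that was not tested. In G8545, the median BOM minus DMSO difference in log2 CPM was -0.30 for S phase genes, with 16 of 16 below 0, and -0.34 for mitotic genes, with 20 of 24 below 0. In RP-116 it was 0.02 and 0.07, with 22 of 24 mitotic genes above 0, and in RP-48 -0.003 and 0.001, with 12 of 24 above 0. The median of all genes and their share below 0 were not computed for each line. A shift of the members alone cannot be told from one of all genes there. In G8545 Aurkb went from 119 CPM in DMSO to 67.0 CPM in BOM and Cdc45 from 92.5 to 56.8 CPM, while Cenpf went from 148 to 266 CPM and Cenpe from 83.1 to 146 CPM. In G8545, 10 fibroblast markers, of which 7 and 8 were detected, summed to 165 CPM in DMSO and 85.8 CPM in BOM, and 7 endothelial markers, of which 5 were detected in each, to 11.1 and 18.8 CPM. Their part in the result was not tested. Over the 3 lines, 3 members were above 0 in all, 13 in 2, 24 in 1 and 3 in none. Of the genes looked at in every comparison the values ran from -0.20 for Mybl2 to 0.24 for Mki67, and the median of all members was -0.09 against -0.01 for all genes.

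The tumors compared BOM, anti-PD1 and both with vehicle. BOM changed 4 members against vehicle, where 14.5% of all genes were called, 5.90% higher and 8.63% lower. Kif20a measured 85.0, 84.1, 78.6, 77.3 and 70.3 CPM in vehicle and 107, 108, 113 and 110.0 CPM in BOM, and it rose by 0.46 (SE 0.07, adjusted p = 0.000618). All 4 BOM tumors were above all 5 vehicle tumors. Rrm2, the small subunit of ribonucleotide reductase, had 194, 192, 175, 199 and 166 CPM in vehicle and 226, 234, 205 and 218 CPM in BOM, and it rose by 0.25 (SE 0.07, adjusted p = 0.0306) without overlap. Nusap1, a binder of spindle microtubules, had 153, 148, 178, 137 and 135 CPM in vehicle and 182, 176, 176 and 186 CPM in BOM, and it rose by 0.26 (SE 0.07, adjusted p = 0.0267), although vehicle tumor 3 lay within the BOM range. Birc5 had 83.4, 96.8, 90.2, 95.8 and 89.6 CPM in vehicle and 72.8, 68.9, 65.1 and 77.6 CPM in BOM, a change of -0.36 (SE 0.11, adjusted p = 0.0426) without overlap. Over all genes, vehicle tumors 1 and 2 were each closer to a tumor given BOM than to any other vehicle tumor. Birc5 was not called when both were left out. The Kif20a call held whichever tumor was left out. Rrm2 lost its call without vehicle tumor 3 or 5 or BOM tumor 1, 2 or 4, Nusap1 without vehicle tumor 2, 4 or 5 or any BOM tumor, and Birc5 without vehicle tumor 2, 3, 4 or 5, any BOM tumor, anti-PD1 tumor 1, 3, 4 or 5 or BOM plus anti-PD1 tumor 2, with adjusted p up to 0.0888, 0.0909 and 0.128.

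Counted without regard to the test, all 4 BOM tumors lay above all 5 vehicle tumors for Bub1b, Foxm1, Kif20a and Rrm2 and below for Birc5, where 6.78% and 9.52% of all genes did. The median was -0.05 for S phase genes and 0.06 for mitotic genes, and -0.02 for all genes. Mean log2 CPM of the mitotic genes minus that of the S phase genes was -0.565 to -0.303 in vehicle, -0.318 to -0.217 in BOM, -0.43 to -0.299 in anti-PD1 and -0.333 to -0.3 in BOM plus anti-PD1, and these ranges overlapped. Vehicle tumor 5 had the -0.565. Skeletal muscle markers summed to 6.72 to 144 CPM in vehicle and 3.499 to 1217 CPM in BOM, fat markers to 20.9 to 528 and 20.2 to 287 CPM, and endothelial markers to 234 to 260.2 and 163 to 249 CPM. Their part in the result was not tested. Of the other genes looked at in every comparison, the nearest were Ccne1 (-0.29, adjusted p = 0.0534) and Cdc20 (0.24, adjusted p = 0.0861), while Mki67 (0.18), Top2a (-0.05), Mcm2 (-0.09), Mcm5 (0.02), Pcna (0.02) and E2f1 (0.01) had larger adjusted p. Anti-PD1 alone called 0 members and 0% of all genes against vehicle in edgeR. At an unadjusted p under 0.05, 5 members were higher and 0 lower, and 35 of 43 were above 0. At that unadjusted p 1411 of all 14332 genes were counted, 843 of them lower. The median of all genes was -0.0039, and their share above 0 was not counted. DESeq2 called 86 genes of the table and 0 members.

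**Figure D5:**
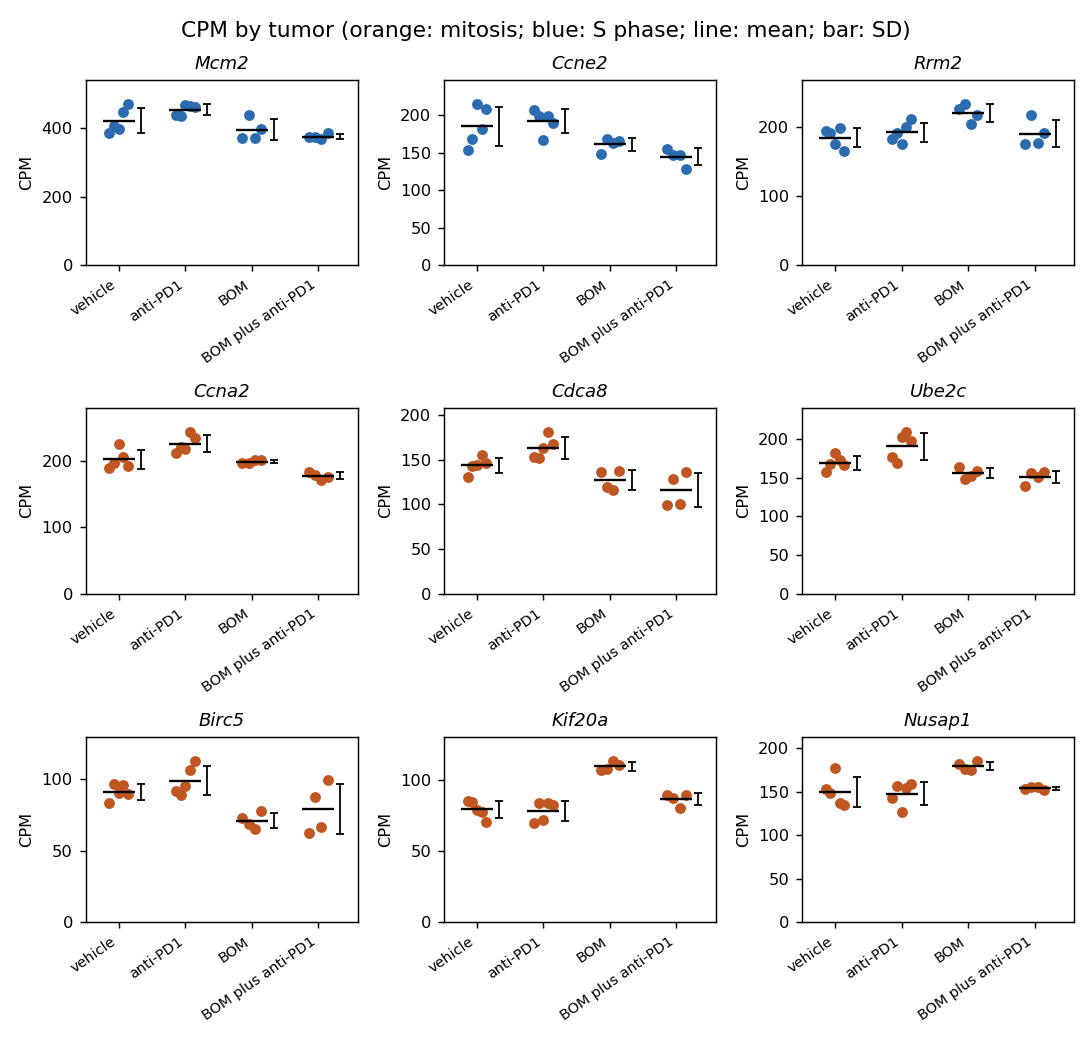
CPM of 9 genes in the 18 tumors by group (points are tumors, the line is the mean and the bar the SD of a group). Kif20a and Rrm2 are higher in BOM than in vehicle without overlap, and the 4 BOM plus anti-PD1 tumors lie below the 5 anti-PD1 tumors for Ccna2, Cdca8, Ube2c and Mcm2.

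BOM plus anti-PD1 against anti-PD1 gave the broadest change of the members in the tumors. In this comparison 16 of 43 fell and 0 rose in edgeR, where 16.6% of all genes fell and 15.8% rose (32.4% called). At an unadjusted p under 0.05, 20 were lower and 1 was higher, and DESeq2 and limma voom called 0 higher. Of all 14332 genes 3118 were lower and 2970 higher at that unadjusted p. Of the 16, 7 are S phase genes, 8 are mitotic and 1 is Mybl2. Ccna2, the cyclin of S phase and mitotic entry, was 213, 222, 218, 244 and 236 CPM in anti-PD1 and 184, 179.9, 172 and 177 CPM in BOM plus anti-PD1, a change of -0.35 (SE 0.06, adjusted p = 0.000236). Cdca8 was 153, 151, 163, 180.4 and 167 CPM in anti-PD1 and 99.0, 129, 101 and 136 CPM in BOM plus anti-PD1, a change of -0.49 (SE 0.09, adjusted p = 0.000742). Neither gene's groups overlapped. Ube2c was 176, 168, 202, 208 and 197 CPM in anti-PD1 and 139, 156, 151 and 157 CPM in BOM plus anti-PD1, a change of -0.34 (SE 0.07, adjusted p = 0.000917). Bub1 was 94.1, 105, 83.8, 90.9 and 92.1 CPM in anti-PD1 and 72.3, 73.1, 72.0 and 68.0 CPM in BOM plus anti-PD1, a change of -0.39 (SE 0.09, adjusted p = 0.00492). These 2 genes did not overlap either. Birc5 (-0.33), Kif2c (-0.32), Top2a (-0.26) and Tpx2 (-0.22) were the other mitotic genes that fell.

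On the S phase side, Ccne2, the cyclin that starts replication with CDK2, was 207, 199.6, 166, 199.7 and 189.6 CPM in anti-PD1 and 156, 148, 147 and 128 CPM in BOM plus anti-PD1, a change of -0.41 (SE 0.09, adjusted p = 0.00264). Its sister gene Ccne1 was 80.7, 71.2, 76.7, 75.2 and 75.7 CPM and 47.9, 65.8, 58.1 and 71.7 CPM, a change of -0.32 (SE 0.10, adjusted p = 0.02), with 1 combination tumor inside the anti-PD1 range. Mcm2 was 439, 436, 467, 465 and 463 CPM in anti-PD1 and 374, 375, 367 and 386 CPM in BOM plus anti-PD1, a change of -0.27 (SE 0.06, adjusted p = 0.00305) without overlap. Tyms (-0.24, SE 0.06, adjusted p = 0.00618), Rrm1 (-0.23, SE 0.06, adjusted p = 0.00985), Mcm3 (-0.21, SE 0.05, adjusted p = 0.00538) and Mcm5 (-0.20, SE 0.07, adjusted p = 0.0324) fell as well. The median was -0.19 for S phase genes, -0.11 for mitotic genes and -0.01 for all genes. Of all 43, 12 lay below anti-PD1 without overlap (6 S phase, 5 mitotic and Mybl2) and 0 above, where 11.9% and 12.2% of all genes did. Mki67 (0.15), Cdc20 (-0.02), Plk1 (-0.11), Rrm2 (-0.01) and Foxm1 (0.01) did not pass.

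The calls of Bub1, Ccna2, Ccne2, Cdca8, Kif2c, Mcm2, Mcm3, Tyms and Ube2c in that comparison held whichever tumor was left out and under each alternative. Rrm1 lost its call without BOM plus anti-PD1 tumor 3 (adjusted p = 0.0607), and Ccne1 without anti-PD1 tumor 1 or BOM plus anti-PD1 tumor 1 or 3 (up to 0.0846). Birc5 (up to 0.139), Mcm5 (0.125), Mybl2 (0.140), Top2a (0.116) and Tpx2 (0.133) lost theirs without anti-PD1 tumor 4 or BOM plus anti-PD1 tumor 3, and without some others. The number lower was 9 without BOM plus anti-PD1 tumor 3. All 7 endothelial, 10 fibroblast and 9 macrophage markers were detected in every tumor. Endothelial markers summed to 240 to 306 CPM in anti-PD1 and 183 to 229.9 CPM in BOM plus anti-PD1 and did not overlap, while fibroblast markers (294 to 2372 and 423 to 753 CPM), macrophage markers (231 to 1081 and 553 to 1233 CPM) and T cell markers (8.32 to 24.97 and 19.9 to 43.9 CPM) did. Skeletal muscle markers (4.72 to 6.42 and 2.67 to 177 CPM) and fat markers (24.4 to 67.0 and 21.3 to 174 CPM) also overlapped, and reached higher in the combination. Of the 8 muscle markers, Ckm, Myh1, Myh4 and Myl1 were at 0 in every anti-PD1 tumor. Their part in the result was not tested.

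Against vehicle, BOM plus anti-PD1 lowered 3 members, where 10.7% of all genes were called, 5.80% lower and 4.94% higher. They were Ccne2 (-0.35, SE 0.09, adjusted p = 0.0224), Ccna2 (-0.19, SE 0.06, adjusted p = 0.0379) and Cdca8 (-0.30, SE 0.09, adjusted p = 0.0423). None held whichever tumor was left out, and 8 members were lower without vehicle tumor 1. The number was 0 without vehicle tumor 3 or 5 or BOM plus anti-PD1 tumor 2 or 3. It was 1 without vehicle tumor 2 or 4, any BOM tumor, anti-PD1 tumor 1, 3, 4 or 5 or BOM plus anti-PD1 tumor 1. Against BOM, edgeR called 0 members with anti-PD1 added (0.00698% of all genes, which is 1 gene), 10 were lower at an unadjusted p under 0.05, and DESeq2 called 1. At that unadjusted p 458 of all 14332 genes were lower. The interaction of BOM and anti-PD1 called 0 members and 0% of all genes in edgeR, with 11 members lower at an unadjusted p under 0.05 and 42 of 43 below 0. Of all 14332 genes 433 were lower and 825 higher at that unadjusted p, with a median of 0.01. The share of all genes below 0 was not counted. DESeq2 and limma voom called 0 members. These comparisons share tumors with those above, so their values are set side by side only.

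Of the related genes in the tumors, BOM against vehicle lowered Cdkn1b (-0.44, SE 0.09, adjusted p = 0.0036), the licensing inhibitor Gmnn (-0.38, SE 0.09, adjusted p = 0.00884), Orc6 (-0.39, SE 0.10, adjusted p = 0.0151) and E2f2 (-0.37, SE 0.09, adjusted p = 0.0145), and raised the pocket protein Rbl1 (0.47, SE 0.12, adjusted p = 0.0155) and Cdkn1c (0.66, SE 0.18, adjusted p = 0.0211). Cdkn1b was 319, 354, 432, 472 and 415 CPM in vehicle and 289.7, 289, 286 and 303 CPM in BOM, without overlap. By list, 4 of 30 replication genes, 1 of 12 G2/M genes, 2 of 7 CDK inhibitors and 1 of 16 pocket protein, E2F and DREAM genes fell, 2 of 16 and 1 of 7 of the last 2 lists rose, and 0 of 30 kinetochore and spindle genes passed in edgeR, where 8 had an unadjusted p under 0.05. Of all genes 8.63% fell and 5.90% rose in that comparison, and 4170 of 14332 had an unadjusted p under 0.05. With anti-PD1 in both groups, BOM lowered 13 of 30 replication genes, 11 of 30 kinetochore and spindle genes, 5 of 12 G2/M genes, 3 of 7 CDK inhibitors and 5 of 16 pocket protein, E2F and DREAM genes, and raised 2 of 7 and 1 of 16 of the last 2 lists, where 16.6% of all genes fell and 15.8% rose. Spc25 of the kinetochore (-0.59, SE 0.09, adjusted p = 0.000193), Racgap1 of cytokinesis (-0.40, SE 0.06, adjusted p = 0.000175), Gmnn (-0.55, SE 0.09, adjusted p = 0.000234), Lin9 of MuvB (-0.45, SE 0.07, adjusted p = 0.000236) and E2f2 (-0.56, SE 0.09, adjusted p = 0.000315) had the lowest p-values with Cdc25b (-0.38, SE 0.06, adjusted p = 0.000278). Rb1 (-0.39, SE 0.10, adjusted p = 0.00637), Cdkn1a (-0.65, SE 0.18, adjusted p = 0.0103) and Cdkn2a (-0.45, SE 0.13, adjusted p = 0.0133) fell in the same comparison, and Ccnd1 (0.51, adjusted p = 0.268) did not pass.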

How the data were processed

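RNA was extracted with TRIzol and made into libraries with the NEBNext Ultra RNA kit, per the labels' protocols. The submitters' processing notes name bcl2fastq, FastQC 0.11.9, STAR 2.7, Subread 2.0, featureCounts and the build mm10, with no roles. The values used are raw read counts per gene, deposited by the authors in 3 tables of 34 libraries. A gene length column deposited by the authors gave levels per kb. Genes were kept by filterByExpr of edgeR 4.0.16 (R 4.3.3), keeping 13333 of the 28432 genes listed at 96 h. At 10 d it kept 15230 of 30351 genes, and among tumor genes 14332 of 29745. Scaling was by TMM. Each table was fitted as a whole. The quasi-likelihood F-test was used with Benjamini-Hochberg adjustment over all genes tested, in 15 comparisons. The 96 h fit had terms for line and treatment, without a line by treatment term. CPM values are TMM-scaled. Log2 CPM used a prior count of 2. The biological coefficient of variation was 0.169 at 96 h, 0.104 at 10 d and 0.181 in the tumors, and the residual degrees of freedom were 2, 6 and 14.

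The members and all gene lists were chosen with earlier results of these data known. The text names, in a comparison, every called member where 8 or fewer were called in a direction, and otherwise the 8 with the lowest p with 1 member of each role left out. It also names a fixed panel of 15 genes and, from the related lists, at most 6 called genes with the lowest p, with Rb1, Cdkn1a, Cdkn2a and Ccnd1. Not every gene of the rule is printed, and others are named by what a sentence counts. The alternatives were DESeq2 1.42.0, limma 3.58.1 (voom with sample weights), other scalings and filters, a replicate block, fits of only the groups compared, and leaving out each library. At 10 d, libraries with the same number in DMSO and DMSO with IFNg deviated together (correlations of 0.119 to 0.393 over 3 pairs), so the blocked value stands beside results it moves. Over every pair of 10 d groups, same-numbered libraries had correlations of 0.0584 to 0.393, with 0.2 for BOM and BOM with IFNg. Some libraries with unlike numbers did so too, as DMSO library 3 and DMSO with IFNg library 2 (0.178). No 2 libraries were copies of each other, since the lowest chi-square per degree of freedom between replicates was 2.31. The fits were also run on simulated data in which all genes shared a common dispersion. The outcome is not given here, and no result above rests on it.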

Additional observations from a re-analysis of the deposited data

Results flagged for a closer look

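Of 76 groups of values looked at, 3 held a sample far from the others, and chance gives such a sample in about 1 in 20 groups. Mki67 measured 432 CPM in vehicle tumor 5 and 560.3 to 609 CPM in the other 4 vehicle tumors. Ccnb1 measured 58.9 CPM in BOM plus anti-PD1 tumor 1 and 65.5 to 66.8 CPM in the other 3 tumors of that group. Vehicle tumor 1 held 82.2 M counts, and the other 4 vehicle tumors held 5.64 to 13.2 M (M, mega). Its chi-square per degree of freedom (lower is more alike) was 8.14 with BOM tumor 3 and 17.7 to 27.8 with the other vehicle tumors. Vehicle tumor 2 had 6.49 with BOM plus anti-PD1 tumor 4 and 9.11 to 17.7 with the other vehicle tumors. The cause was not tested.

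At 96 h the median BOM minus DMSO difference in log2 CPM had opposite signs in some pairs of lines, each with 1 library per treatment, and these differences were not tested. For the S phase genes it was -0.003 in RP-48 and 0.02 in RP-116, and -0.298 in G8545 and 0.02 in RP-116. For the mitotic genes it was -0.337 in G8545 against 0.067 in RP-116, and -0.337 in G8545 against 0.001 in RP-48. The median of all genes was not computed for each line.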

How the results depend on the processing

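Over 278 values of named members, 5938 alternative values were computed, of which 5534 kept their side of the threshold, 341 lost a call and 63 gained one. No value that passed under either setting changed sign, while some values that did not pass did. At 96 h each line rests on 2 libraries. At 96 h, limma voom called 8 members higher and 6 lower in RP-116 against RP-48, 1 higher in G8545 against RP-48, and gave differences of the S phase and mitotic medians of -0.0078 for BOM and -0.24 for RP-116 against G8545. Only the 2 groups compared gave 9 and 6 for RP-116 against RP-48 and 5 and 1 for RP-116 against G8545. Library size alone gave 5 lower, 1 higher and 2 lower, and 5 higher for the 3 line comparisons in turn. No filter gave 1 higher and 10 lower for G8545 against RP-48, and no treatment term a difference of -0.212. At 10 d, library size alone gave 2 higher and 1 lower for BOM and 12 lower for BOM in IFNg, limma voom 2 higher for BOM. For IFNg in BOM DESeq2 gave 8 lower, no filter 12 and only the groups compared 2. For the interaction DESeq2 gave 1 lower and no filter 2. In the tumors, BOM lowered 2 members in DESeq2, limma voom, without vehicle tumors 1 and 2, and with vehicle tumor 1 thinned, and 0 with no filter or a filter at 1 CPM. Without vehicle tumors 1 and 2, Birc5 was not among the 2 lower, and 3363 of all genes were called in place of 2082. DESeq2 gave 1 lower for the combination against BOM. Against vehicle the combination gave 1 lower with no filter, a filter at 1 CPM or without Gm26917 and Gm42418, 0 with only the groups compared and 7 without vehicle tumors 1 and 2. Without those tumors 3284 of all genes were called in place of 1539. The causes were not tested.

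Leaving out each library in turn, the number of members called ranged from 0 to 9 higher and 0 to 6 lower for RP-116 against RP-48, 0 to 4 and 0 to 17 for G8545 against RP-48, and 3 to 19 and 0 to 6 for RP-116 against G8545. It ranged from 0 to 2 higher and 0 to 2 lower for BOM at 10 d, 1 to 10 lower for IFNg in BOM and 6 to 23 lower for BOM in IFNg. In the tumors it was 1 to 4 higher and 0 to 3 lower for BOM, 9 to 16 lower for the combination against anti-PD1 and 0 to 8 lower against vehicle. The median of the S phase genes minus that of the mitotic genes ranged from -0.0349 to 0.0582 for BOM at 96 h, -0.298 to -0.239 for RP-116 against RP-48, -0.217 to -0.108 for G8545 against RP-48 and -0.264 to -0.182 for RP-116 against G8545. It ranged from -0.11 to 9e-04 for IFNg in DMSO, 0.0676 to 0.144 for BOM in IFNg and 0.202 to 0.291 for the interaction.

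With the replicate block, 11 members were lower for IFNg in BOM and 22 for BOM in IFNg, with 19 in common with the 21. The numbers of the tumors do not pair them, since same-numbered tumors had correlations of -0.356 to 0.512. The block left 2 higher in BOM, 15 lower in the combination against anti-PD1 and 2 lower against vehicle. It changed no other count of members by over 1.5 times.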

Other observations

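Some related cell cycle genes separated the 3 lines at 96 h by more than any of the 43 genes. Cdk6 measured 0 CPM in DMSO and 0.117 CPM in BOM in RP-116, 7.76 and 3.83 CPM in RP-48, and 155 and 21.3 CPM in G8545. The anaphase inhibitor securin, encoded by Pttg1, measured 0.488 and 0.117 CPM in RP-116, 4.15 and 3.23 CPM in RP-48, and 63.0 and 39.3 CPM in G8545. For both genes G8545 was highest and RP-116 lowest, without overlap, and the share of all genes that separate the lines was not counted. Lin9, a subunit of MuvB, was higher in RP-116 than in RP-48 (adjusted p = 0.00108) and higher than in G8545 by 1.94 (SE 0.16, adjusted p = 0.000102) on the log2 scale. The repressor E2f8 was higher in RP-116 than in RP-48 by 1.63 (SE 0.18, adjusted p = 0.000482).

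By list, RP-116 against RP-48 had 3 of 5 G1 genes and 3 of 7 CDK inhibitors lower, 5 of 16 pocket protein, E2F and DREAM genes higher and 1 lower, 3 of 30 replication genes lower, 5 of 30 kinetochore and spindle genes higher and 2 lower, and 1 of 12 G2/M genes lower, where 12.4% of all genes were higher and 17.1% lower. RP-116 against G8545 had 4 G1 genes and 2 CDK inhibitors lower, 7 pocket protein, E2F and DREAM genes higher and 1 lower, 7 replication genes higher, 8 kinetochore and spindle genes higher and 1 lower, and 2 G2/M genes higher and 1 lower, where 16.3% of all genes were higher and 19.7% lower. G8545 against RP-48 had 1 G1 gene higher, 2 CDK inhibitors lower, 2 pocket protein, E2F and DREAM genes higher and 2 lower, 5 replication genes lower, 1 kinetochore and spindle gene higher and 2 lower, and 1 G2/M gene lower, where 9.99% of all genes were higher and 11.0% lower. Among those lower were Cdkn2a (-0.71, adjusted p = 0.0483) and Rb1 (-0.63, adjusted p = 0.0383).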
